A study of Homo sapiens with 6 samples.

Results

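The 10 genes described here are 6 keratins (KRT7, KRT8, KRT18, KRT19, KRT80 and KRT81), the tight junction protein CLDN4, the protease inhibitor SPINT1, the basal marker TRIM29 and the luminal marker AGR2. They were taken by symbol, and all 10 were found among the 20111 genes of the table. Messenger RNA came from MDA-MB-231, an established human breast cancer line described in the labels as triple negative, a class of breast cancer that lacks both hormone receptors and HER2 amplification. The groups are cells given a control siRNA (siControl), cells in which NCOA3, a coactivator of nuclear receptors, was targeted (siNCOA3), and cells in which SHC1, an adaptor between receptor tyrosine kinases and RAS, was targeted (siSHC1). Each siRNA was sampled once at 24 h and once at 48 h of transfection, which makes 6 libraries. All groups share the transfection, and siRNA sequences were not used here. The labels do not say that libraries are from separate cultures. The p-values thus reflect the spread among 6 libraries alone, and this spread may be technical. No siRNA was repeated at the same time, so the spread of a gene is its departure from equal siRNA differences at 24 h and 48 h. It therefore also holds any real change of these differences with time, which cannot be told apart from noise between libraries. The standard errors below rest on the same spread.

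The genes were listed with earlier results of these libraries known, among them the differences between siSHC1 and siControl. The values of the 10 genes in that comparison are therefore a description, and no p is given for them there. The count of the 10 past the threshold is printed only beside that of all genes, and other genes are given with their adjusted p. The comparisons of siNCOA3 with siControl and of 48 h with 24 h are given with their tests.

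Keratins are the intermediate filament proteins of epithelial cells. A filament is built from pairs of a type I keratin (here KRT18 and KRT19) and a type II keratin (here KRT7, KRT8, KRT80 and KRT81), and an unpaired keratin protein is degraded. KRT8 with KRT18 is the basic pair of simple epithelia, KRT7 and KRT19 join it in ductal epithelia such as the breast, KRT80 is a widely expressed epithelial keratin, and KRT81 was first known from hair. Claudins such as CLDN4 seal the space between neighbouring cells, SPINT1 (also HAI-1) inhibits the membrane protease matriptase and the activator of hepatocyte growth factor, TRIM29 belongs to basal and stratified epithelia, and AGR2 is a protein disulfide isomerase of the endoplasmic reticulum of secretory and luminal cells. MDA-MB-231 is known as a mesenchymal-like line, in which the adhesion protein E-cadherin (CDH1) is lost while simple keratins are kept.

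Promoter sequences are shown for the genes of this set that the RefSeq table of starts (GRCh38.p14) holds, 4 of 10, because CLDN4, SPINT1 and AGR2 stood high together in the siSHC1 libraries while KRT8 stood high in the libraries of both knockdowns. Each line gives the 250 bases before an annotated start, 5′ to 3′ on the gene's strand. Capitals mark matches on either strand to the AP-1 motif TGANTCA, to the E-box CAGGTG that SNAI and ZEB repressors are known to bind, to the TATA motif TATAAA, or to the GC box GGGCGG. None of the motifs overlaps another in these windows. The windows are chr7:73830746-73830995 on the plus strand for CLDN4, chr15:40844227-40844476 on the plus strand for the downstream of the 2 SPINT1 starts, chr7:16805000-16805249 on the minus strand for AGR2, and chr12:52926470-52926719 on the minus strand for KRT8.
CLDN4: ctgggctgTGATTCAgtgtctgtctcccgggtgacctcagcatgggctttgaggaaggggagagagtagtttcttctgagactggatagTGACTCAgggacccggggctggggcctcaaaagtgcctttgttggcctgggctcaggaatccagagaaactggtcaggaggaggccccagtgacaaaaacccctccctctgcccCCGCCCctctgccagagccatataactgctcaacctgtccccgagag
SPINT1: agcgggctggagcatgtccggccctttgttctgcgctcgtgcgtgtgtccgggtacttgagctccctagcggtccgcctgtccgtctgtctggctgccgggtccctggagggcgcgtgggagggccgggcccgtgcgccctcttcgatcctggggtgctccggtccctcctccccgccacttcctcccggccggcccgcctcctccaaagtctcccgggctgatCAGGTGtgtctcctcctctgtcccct
AGR2: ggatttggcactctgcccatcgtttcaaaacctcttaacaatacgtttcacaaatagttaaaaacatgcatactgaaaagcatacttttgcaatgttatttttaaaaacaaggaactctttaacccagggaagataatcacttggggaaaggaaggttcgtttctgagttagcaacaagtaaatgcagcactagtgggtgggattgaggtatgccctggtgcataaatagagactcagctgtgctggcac
KRT8: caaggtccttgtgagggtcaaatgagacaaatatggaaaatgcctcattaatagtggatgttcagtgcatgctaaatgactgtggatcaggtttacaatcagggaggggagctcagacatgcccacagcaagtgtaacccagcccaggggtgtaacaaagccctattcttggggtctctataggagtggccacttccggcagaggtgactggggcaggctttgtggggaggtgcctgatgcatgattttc
CLDN4 held 2 AP-1 matches, TGATTCA and TGACTCA, at 242 to 236 and 161 to 155 bases before its start, and 1 GC box. The E-box was found in the SPINT1 window shown, 26 to 21 bases before the start, and the other SPINT1 window (not shown) held 3 GC boxes. AGR2 and KRT8 held none of the 4 motifs in these bases. Among 35116 such windows 6.57% held the AP-1 motif, 17.5% the E-box, 10.7% the TATA motif and 42.6% the GC box. These matches are a description of letters.

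Levels are taken to be in FPKM, fragments normalised for transcript length and library size, so that different genes can be set side by side. Ranks and sums across genes rest on this reading of the values. Values below are FPKM scaled between libraries by factors of 0.947 to 1.02. The totals of the deposited FPKM were 495518 to 553073 per library and 14796 to 15221 genes lay above 0. The number of reads behind a value is not known from the files, so that no counting interval is given. NCOA3 stood at 1.67 and 1.83 scaled FPKM in the siNCOA3 libraries against 10.9 and 11.2 in siControl, and SHC1 at 14.5 and 15.5 in the siSHC1 libraries against 108 and 117. Of 12 listed mesenchymal genes 7 reached 1 scaled FPKM in at least 1 library, among them VIM at 916 to 1011 and AXL at 356 to 435. The others, CDH2, SNAI1, TWIST1, TWIST2 and SPARC, stayed under 1 scaled FPKM in every library. ESR1, PGR and FOXA1 stayed under 0.1 scaled FPKM, while GATA3 stood at 4.61 to 5.47 and ERBB2 at 26.5 to 34.9. CDH1 reached at most 0.57 scaled FPKM. Of the 8 measured markers of blood cells, endothelium and fibroblasts, PTPRC, CD3E, CDH5, VWF and COL3A1 were at or near 0. CD14 stood at 3.42 to 7.38 scaled FPKM and PDGFRB at 2.18 to 4.11, each highest in siControl at 48 h. COL1A1 stood at 2.28 to 7.48. The sum of the 8 was 7.94 and 14.8 in siControl, 9.41 and 10.6 in siNCOA3 and 13.9 and 17.4 in siSHC1. The siSHC1 sums hold the rise of COL1A1, from 2.28 to 6.69 scaled FPKM at 24 h and from 3.22 to 7.48 at 48 h (fitted log2 difference 1.12 ± 0.12, SE, limma adjusted p = 0.00776), whose part in the results below was not tested. In bulk RNA, fewer cells that carry a transcript and less of it in each cell cannot be told apart.

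In the siControl cells the set spanned abundant and rare transcripts. KRT8 averaged 226 scaled FPKM over both control libraries, above 97.5% of the 11690 tested genes, followed by KRT19 at 183, KRT18 at 166 and KRT7 at 125. CLDN4 averaged 49.1 and KRT80 44.3. KRT81 at 7.61, SPINT1 at 4.63, TRIM29 at 2.78 and AGR2 at 1.57 were in the lower part of the range, and AGR2 exceeded 5.94% of tested genes. KRT19 at 162 and 204 and KRT18 at 169 and 163 changed order between 24 h and 48 h. CLDN4 at 46.2 and 52.0 was above KRT80 at 41.9 and 46.7 at each time, though their ranges over both times overlapped. These orders rest on 1 control library per time and were not tested. All 10 passed the filter on low values, AGR2 with values above 1 scaled FPKM in every library.

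**Figure D1:**
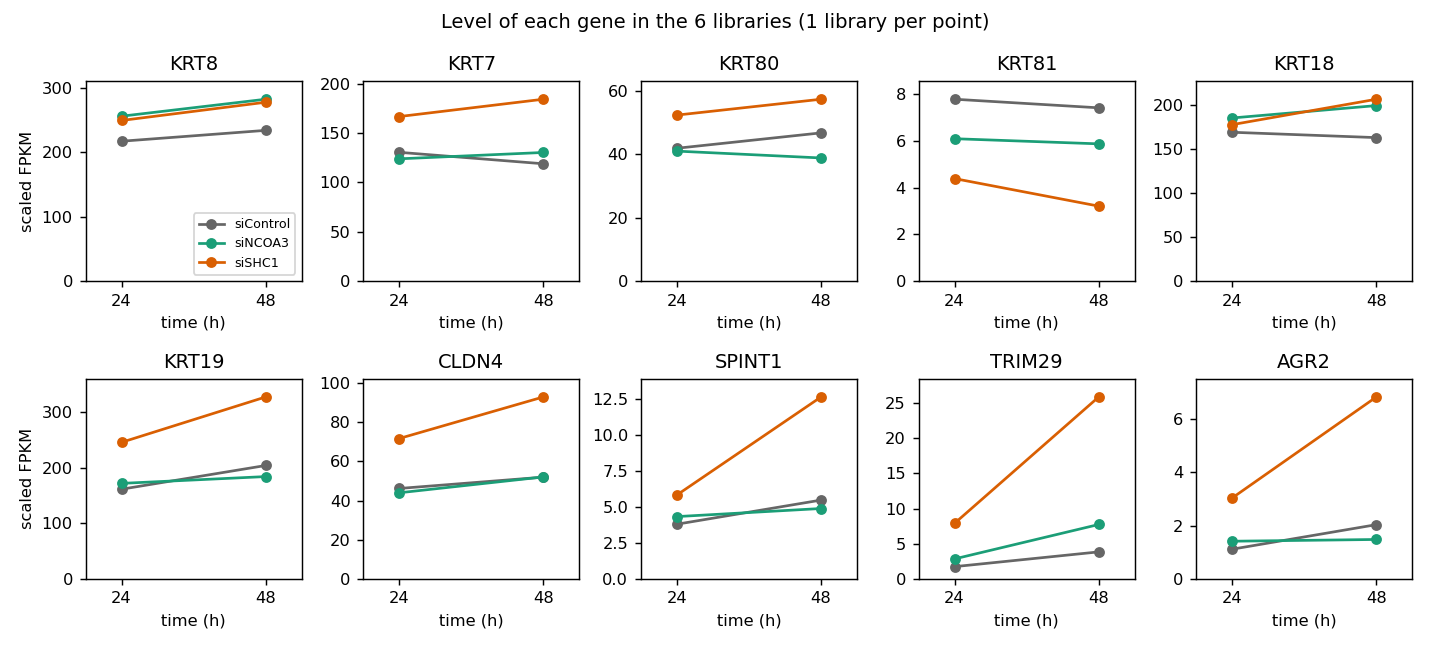
Scaled FPKM (vertical axis, from 0) of each of the 10 genes at 24 h and 48 h, with 1 library per point and lines joining the libraries of an siRNA. The siSHC1 points are the highest in 7 panels and the lowest in that of KRT81, where they stand at 4.39 and 3.21. Over all tested genes, both siSHC1 libraries lay above the 4 others in 17.2% and below them in 17%. The 10 genes were listed with the siSHC1 difference known. KRT8 and KRT18 have the siNCOA3 and siSHC1 points together above siControl. Of all tested genes, 20.1% had siNCOA3 and 24.1% had siSHC1 above siControl.

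TRIM29 varied most. At 24 h it stood at 1.73 scaled FPKM with siControl, 2.83 with siNCOA3 and 7.90 with siSHC1, and at 48 h at 3.83, 7.73 and 25.9. The order siControl, siNCOA3, siSHC1 was the same at both times, and every siRNA was higher at 48 h, so that the highest library held 15.0 times the level of the lowest. Both siSHC1 libraries lay above the 4 others, although siNCOA3 at 48 h, at 7.73, came close to siSHC1 at 24 h, at 7.90.

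AGR2 stood at 1.11 scaled FPKM with siControl, 1.41 with siNCOA3 and 3.04 with siSHC1 at 24 h, and at 2.03, 1.48 and 6.83 at 48 h. The siSHC1 libraries were apart from the rest, and the siNCOA3 libraries lay between the 2 controls. SPINT1 gave the same order of libraries, with 3.79, 4.32 and 5.82 scaled FPKM for siControl, siNCOA3 and siSHC1 at 24 h and 5.47, 4.88 and 12.6 at 48 h. At 24 h the siSHC1 value of SPINT1 was only just above the siControl value of 48 h.

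CLDN4 stood at 46.2, 44.0 and 71.7 scaled FPKM for siControl, siNCOA3 and siSHC1 at 24 h, and at 52.0, 52.1 and 93.0 at 48 h. The siControl and siNCOA3 libraries overlapped, and siSHC1 was higher at either time. KRT19 stood at 162, 172 and 246 at 24 h and at 204, 184 and 328 at 48 h, which made it the most abundant of the 10 genes in the siSHC1 library of 48 h, above KRT8 at 278.

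KRT7 stood at 130, 124 and 167 scaled FPKM for siControl, siNCOA3 and siSHC1 at 24 h, and at 119, 130 and 184 at 48 h. KRT80 stood at 41.9, 41.0 and 52.4 at 24 h and at 46.7, 38.8 and 57.4 at 48 h. For both type II keratins the siSHC1 libraries were the highest, with siControl and siNCOA3 overlapping for KRT7 and siNCOA3 just below siControl for KRT80. KRT81 ran the other way, with 7.79, 6.10 and 4.39 at 24 h and 7.43, 5.88 and 3.21 at 48 h. Its 3 siRNAs did not overlap, with siControl highest and siSHC1 lowest. Of all tested genes 19.3% had the siNCOA3 libraries below siControl and 17% had the siSHC1 libraries below the 4 others. The share of genes with both was not counted.

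KRT8 and KRT18, the basic pair, had an order of their own. KRT8 stood at 217, 256 and 250 scaled FPKM for siControl, siNCOA3 and siSHC1 at 24 h, and at 234, 283 and 278 at 48 h. KRT18 stood at 169, 185 and 177 at 24 h and at 163, 199 and 206 at 48 h. In both genes all 4 knockdown libraries were above both siControl libraries, and the siNCOA3 and siSHC1 libraries overlapped. Over all tested genes, 20.1% had the siNCOA3 libraries above both siControl libraries and 24.1% had the siSHC1 libraries above them. These shares use the same controls, and the share of genes with both was not counted. Their spread was the smallest of the set, with the highest library at 1.30 times the lowest for KRT8 and 1.27 times for KRT18.

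Some of these genes cannot be fully told apart from others. In the GENCODE annotation (release 29, GRCh38, not the authors' build) KRT8 and KRT18 on chromosome 12 overlap on opposite strands, and so do KRT81 and KRT86, while KRT7 overlaps KRT86 on its own strand and KRT7-AS on the other. The annotation names 50 pseudogenes after KRT8, 68 after KRT18 and 5 after KRT19. The library kit is stranded, but use of strand in quantification, and the treatment of fragments with several matches, were left unstated by the labels and the file. KRT86, a close copy of KRT81 among hair keratins, stood at 1.08 to 1.45 scaled FPKM, and the ratio of KRT81 to KRT86 was 5.39 and 5.31 in siControl, 4.90 and 4.28 in siNCOA3 and 3.07 and 2.99 in siSHC1.

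The siSHC1 and siControl libraries, the comparison known when the genes were listed, are described first. TRIM29 was 4.56 times its control level at 24 h and 6.76 times at 48 h, AGR2 2.73 and 3.36 times, SPINT1 1.54 and 2.31 times, CLDN4 1.55 and 1.79 times and KRT19 1.52 and 1.61 times. KRT7 was at 1.28 and 1.55 times, KRT80 at 1.25 and 1.23 times, KRT8 at 1.15 and 1.19 times and KRT18 at 1.05 and 1.27 times. KRT81 was the exception, 1.77-fold lower at 24 h and 2.31-fold lower at 48 h. The ratio was farther from 1 at 48 h than at 24 h in every gene but KRT80. This difference between times was not tested, as each rests on 1 library.

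In the fit over all 6 libraries, on log2(scaled FPKM + 1), which understates changes of low genes, the siSHC1 differences were 2.09 ± 0.18 (SE, n = 2 libraries per siRNA) for TRIM29, 1.15 ± 0.22 for AGR2, 0.79 ± 0.20 for SPINT1, 0.73 ± 0.08 for CLDN4 and 0.64 ± 0.09 for KRT19. They were 0.49 ± 0.09 for KRT7, 0.30 ± 0.09 for KRT80, 0.22 ± 0.06 for KRT8, 0.21 ± 0.08 for KRT18 and -0.85 ± 0.13 for KRT81. The median of the 10 was 0.57, beside 0.00 over all tested genes. By limma 6 of the 10 passed the adjusted p threshold of 0.05, 5 higher and 1 lower. Of all tested genes 6.42% did (3.11% higher, 3.32% lower). Because the genes were listed with this comparison known, nothing is read from the count. Leaving out siControl at 24 h left 1 of the 10, leaving out siControl at 48 h also 1, and leaving out siSHC1 at 48 h left 2. With equal library totals 209 of all genes were called higher and 497 lower, against 363 and 388 in the main fit.

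Against the siNCOA3 libraries, which share the siSHC1 libraries with the comparison above and are given as values only, siSHC1 was 2.79 and 3.35 times higher for TRIM29 at 24 h and 48 h, 2.15 and 4.63 times for AGR2, 1.63 and 1.79 times for CLDN4 and 1.43 and 1.78 times for KRT19. KRT8 stood at 0.974 and 0.983 times and KRT18 at 0.959 and 1.04 times. Counting genes in which both siSHC1 libraries lay outside the range of the 4 others, 7 of the 10 were higher, against 17.2% of all tested genes, and 1 was lower, against 17% (34.2% either way). KRT8 and KRT18 were the 2 that overlapped. These counts too rest on the siSHC1 libraries known beforehand.

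**Figure D2:**
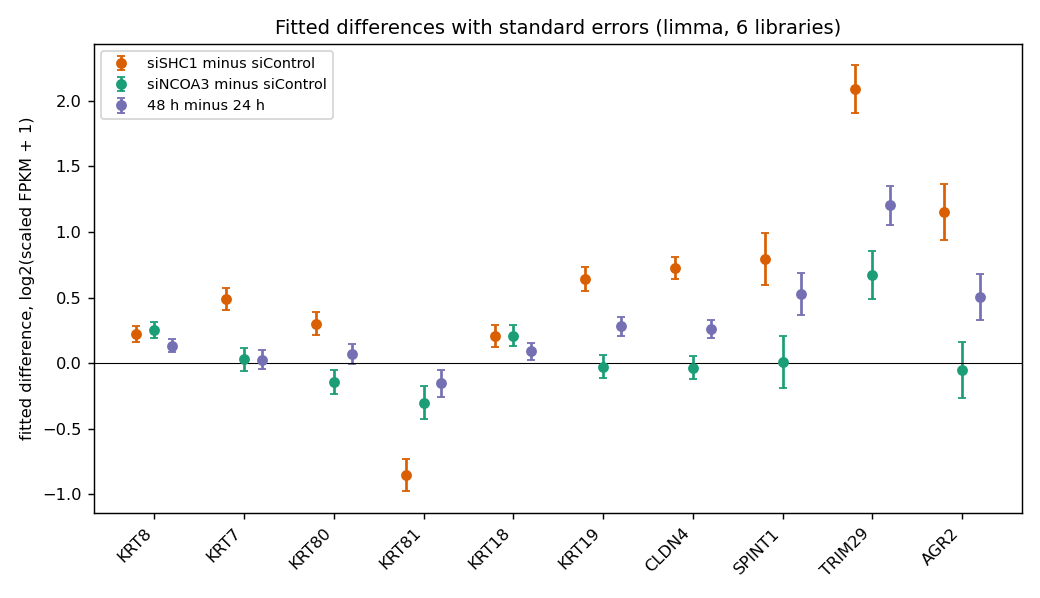
Fitted differences on log2(scaled FPKM + 1) for each gene, with bars of 1 standard error, for siSHC1 minus siControl (description only), siNCOA3 minus siControl and 48 h minus 24 h. TRIM29 has the largest value in all 3 comparisons, at 2.09, 0.67 and 1.20, and KRT81 is below 0 in all 3, which share libraries.

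Between siNCOA3 and siControl the question is which of these transcripts differ when the coactivator is reduced. The siControl libraries are the same as in the siSHC1 comparison, so the values of the comparisons are not independent of each other. None of the 10 passed the test (limma, 0 called, 4 at an unadjusted p under 0.05), in a comparison in which 0.111% of all tested genes were called, all of them lower. The largest value was that of TRIM29, 1.64 times its control at 24 h and 2.02 times at 48 h, with a fitted difference of 0.67 ± 0.18 (SE from the fit to all libraries, limma adjusted p = 0.331). Its siNCOA3 and siControl libraries overlapped, since siControl at 48 h was above siNCOA3 at 24 h. KRT8 had 0.25 ± 0.06 (limma adjusted p = 0.305) and KRT18 0.21 ± 0.08 (limma adjusted p = 0.445), each higher at both times. KRT81 had -0.30 ± 0.13 (limma adjusted p = 0.473), with siNCOA3 at 0.783 times control at 24 h and 0.792 times at 48 h.

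The other values were smaller. KRT80 had -0.15 ± 0.09, with 0.978 times control at 24 h and 0.831 times at 48 h. KRT7 (0.03 ± 0.09), KRT19 (-0.03 ± 0.09), CLDN4 (-0.03 ± 0.08), SPINT1 (0.01 ± 0.20) and AGR2 (-0.05 ± 0.22) stood at or below 1 SE from 0, and the signs of CLDN4 and KRT19 (without scaling) and of SPINT1 (with equal library totals) changed. Across the 10 genes 5 values were above 0 and 5 below, with a median of -0.01, against 0.00 over all tested genes. The siNCOA3 and siControl libraries did not overlap for 4 of the 10 (KRT8 and KRT18 higher, KRT80 and KRT81 lower), near the 39.3% of all tested genes (20.1% higher, 19.3% lower).

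The comparison of 48 h with 24 h, over the 3 siRNAs, asks how the transcripts move with time after transfection. None of the 10 passed (limma, 0 called, 6 at an unadjusted p under 0.05), with 0.0257% of all tested genes called (0.0171% higher, 0.00855% lower). TRIM29 was 2.21 times higher at 48 h with siControl, 2.73 times with siNCOA3 and 3.28 times with siSHC1, a fitted difference of 1.20 ± 0.15 (SE, n = 3 libraries per time, limma adjusted p = 0.156). Its 48 h library was above its 24 h library within each siRNA. SPINT1 had 0.53 ± 0.16 (limma adjusted p = 0.288) and AGR2 0.51 ± 0.18 (limma adjusted p = 0.310), and both rest in part on siSHC1, where 48 h stood at 2.17 and 2.25 times 24 h, against 1.44 and 1.83 times with siControl and 1.13 and 1.05 times with siNCOA3.

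KRT19 had 0.28 ± 0.07 and CLDN4 0.26 ± 0.07 (limma adjusted p = 0.281 for each), and KRT8 had 0.13 ± 0.05 (limma adjusted p = 0.327). KRT7, KRT80 and KRT18 lay between 0.03 and 0.09, and KRT81 had -0.15 ± 0.10. The 48 h library was higher than the 24 h library within all 3 siRNAs for 6 of the 10 genes (KRT8, KRT19, CLDN4, SPINT1, TRIM29, AGR2), against 20.8% of all tested genes, and lower for KRT81, against 17.4% (38.2% either way). The median of the 10 was 0.20, beside 0.01 over all tested genes. All 6 had their steepest ratio of 48 h to 24 h in the siSHC1 libraries, so the count is not independent of the comparison known beforehand.

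The keratins were then summed by type, since the proteins pair 1 to 1. The type I sum (KRT18 and KRT19) was 330 and 367 scaled FPKM with siControl, 357 and 383 with siNCOA3 and 424 and 534 with siSHC1, at 24 h and 48 h. The type II sum (KRT7, KRT8, KRT80 and KRT81) was 397 and 407, 427 and 458, and 473 and 523. Type II therefore stood at 1.20 and 1.11 times type I with siControl, 1.20 and 1.19 times with siNCOA3, and 1.12 and 0.978 times with siSHC1, where the library of 48 h was the only one with more type I than type II. The ratio of KRT8 to KRT18 ran from 1.29 to 1.44 over the 6 libraries with no order by siRNA. That of KRT19 to KRT18 was 0.957 and 1.26 with siControl, 0.930 and 0.926 with siNCOA3 and 1.39 and 1.59 with siSHC1. The 6 keratins together made up 0.139% to 0.191% of all FPKM, lowest in siControl at 24 h and highest in siSHC1 at 48 h, and 97.5% to 98.2% of the FPKM of all 55 keratin genes in the table. Vimentin (VIM), the mesenchymal intermediate filament, had a siSHC1 difference of 0.02 ± 0.05 (limma adjusted p = 0.832), and the keratin sum stood at 0.778 and 0.845 times VIM with siControl, 0.801 and 0.832 times with siNCOA3 and 0.964 and 1.11 times with siSHC1.

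**Figure D3:**
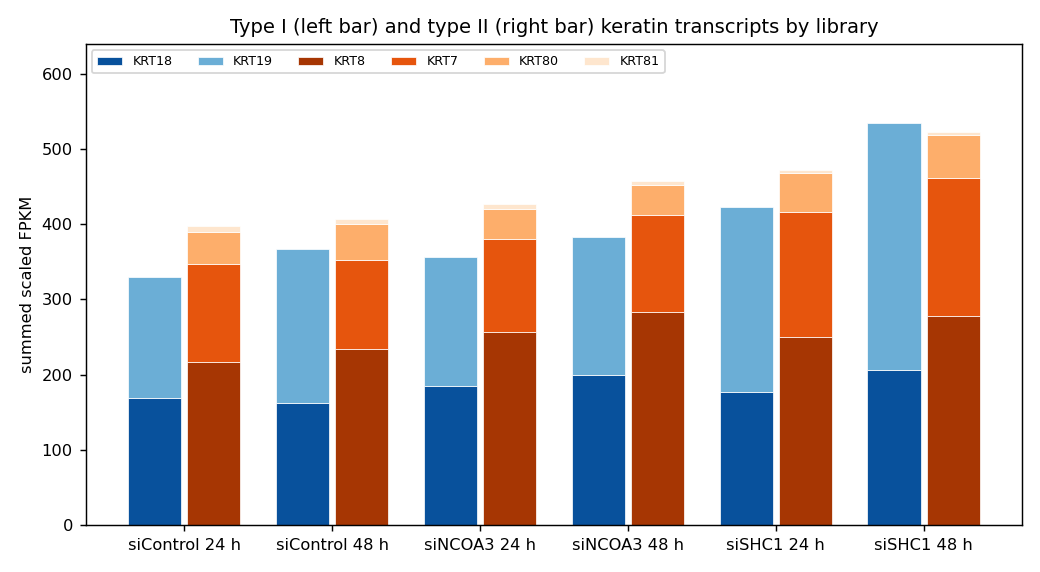
Summed scaled FPKM (vertical axis) of the type I keratins (left bar of each library, KRT18 and KRT19) and the type II keratins (right bar, KRT8, KRT7, KRT80 and KRT81). The light blue KRT19 part grows from 162 with siControl at 24 h to 328 with siSHC1 at 48 h, the only library whose left bar, at 534, is taller than its right bar, at 523.

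Of the 49 other keratin genes in the table, 46 never reached 1 scaled FPKM, and 23 of these were listed at 0 in all 6 libraries. The exceptions were KRT10, KRT15 and KRT86. KRT5 was listed at 0 in every library, and KRT14 and KRT17, which with KRT5 define basal breast epithelium, reached at most 0.03 and 0.16 scaled FPKM. KRT15, a basal keratin, stood at 1.35, 1.37 and 3.50 scaled FPKM for siControl, siNCOA3 and siSHC1 at 24 h and at 3.13, 1.59 and 5.34 at 48 h, and did not pass for siSHC1 (0.78 ± 0.18, limma adjusted p = 0.0535). KRT10, of the suprabasal epidermis, stood at 11.6 to 14.3. The basal factor TP63 stayed under 0.5 scaled FPKM, while 9 other basal and squamous markers of the list were abundant enough to be tested.

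Other epithelial genes, in lists of textbook members chosen with earlier results known, were read from the same fit, without the 10 genes. For siSHC1 they are to be read beside the 3.11% of all tested genes called higher and the 3.32% called lower, and beside the median of 0.00. Counting SHC1 itself, 11 genes of the lists were called for siSHC1. Of these 1 kept its call without the siControl library at 24 h and 3 without that at 48 h, 3 did without the siSHC1 library at 48 h or without the term for time, and 0 did without the filter on low values, where 20111 genes were tested. None changed direction in these fits. Of 14 tested tight junction genes 2 rose and 0 fell, with a median of 0.31 and 12 values above 0. Cingulin (CGN), a cytoplasmic plaque protein, rose by 0.83 ± 0.17 (limma adjusted p = 0.0401) at a low level of at most 1.85 scaled FPKM, and the junctional receptor CXADR rose by 0.70 ± 0.14 (limma adjusted p = 0.0373). Both siControl values of CGN were under 1 scaled FPKM. Besides its siSHC1 libraries only siNCOA3 at 48 h, at 1.08, reached 1. Without siSHC1 it would not have passed the filter on low values, so that it had to differ to be tested. Its adjusted p and its place among the 2 that rose are therefore tied to the filter. CLDN7, another claudin of simple epithelia, had 0.42 ± 0.14 (limma adjusted p = 0.118).

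None of 7 adherens junction genes passed for siSHC1 (limma, 0 called), with a median of -0.05, and the catenins CTNNA1 and CTNNB1 had 0.16 ± 0.08 and -0.15 ± 0.08. Plakoglobin (JUP), shared by adherens junctions and desmosomes, had 0.83 ± 0.21 (limma adjusted p = 0.0738). Of 9 desmosome and hemidesmosome genes 1 rose, the desmosomal plaque protein PKP3 at 0.70 ± 0.13 (limma adjusted p = 0.0350), and the median was 0.14. Of 9 proteins that bind keratin or belong to the plakins 1 rose and 1 fell, with a median of 0.07. These were periplakin (PPL), a plakin of the cornified layer, at 0.72 ± 0.14 (limma adjusted p = 0.0380), and the adaptor YWHAZ, which fell by 0.27 (limma adjusted p = 0.0481).

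SPINT1 belongs to a system of membrane proteases and growth factor activation. SPINT2, the second inhibitor of the family, was much more abundant, at 169 to 287 scaled FPKM, and had a siSHC1 difference of 0.31 ± 0.11 (limma adjusted p = 0.132). Matriptase itself (ST14), the protease both inhibit, reached at most 0.75 scaled FPKM, the hepatocyte growth factor gene HGF was listed at 0 throughout, and its receptor MET had -0.39 ± 0.09 (limma adjusted p = 0.0501). Of 6 tested genes of this system 1 rose with siSHC1, the receptor MST1R at 0.72 ± 0.14 (limma adjusted p = 0.0357), and the median was 0.30. With siNCOA3 1 of the 6 fell, the protease-activated receptor F2RL1, by 1.13 ± 0.09 (limma adjusted p = 0.00719), a call lost when any of the 4 siControl and siNCOA3 libraries was left out.

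AGR2 and TRIM29 were set beside the markers they are usually grouped with. Of 5 other tested luminal markers none passed for siSHC1 (limma, 0 called), with a median of 0.02, and XBP1, a factor of secretory cells, had 0.38 ± 0.12 (limma adjusted p = 0.102), and MLPH, of vesicle transport, 0.02. AGR3, the paralogue of AGR2, was listed at 0 in all 6 libraries. Of 8 other tested disulfide isomerases none passed (limma, 0 called), with a median of 0.17, and the most abundant, P4HB, had 0.40 ± 0.09 (limma adjusted p = 0.0535), while PDIA3 had 0.21. Of 9 other tested basal and squamous markers 1 rose and 1 fell, with a median of -0.04. The laminin chain LAMB3 rose by 0.44 ± 0.08 (limma adjusted p = 0.0268) and the EGF receptor (EGFR) fell by 0.62 ± 0.09 (limma adjusted p = 0.0164). With siNCOA3 the basal marker NGFR fell by 1.33 ± 0.15 (limma adjusted p = 0.0492), a call kept in 5 of 14 alternatives.

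Factors that set the epithelial programme were mostly low. Of 16 listed transcription and splicing factors 10 stayed under 1 scaled FPKM in every library, among them ESRP1 and GRHL2, which were listed at 0. Of the 6 tested none passed for siSHC1 (limma, 0 called), with a median of 0.12, and the most abundant, EHF and TFAP2A, had -0.09 ± 0.14 and 0.46 ± 0.11. Of 7 tested mesenchymal genes none passed (limma, 0 called), with a median of 0.02. The most abundant, VIM and AXL, had 0.02 ± 0.05 and 0.12 ± 0.07. The repressors ZEB1 and SNAI2 had -0.43 ± 0.11 (limma adjusted p = 0.0690) and -0.44 ± 0.10 (limma adjusted p = 0.0517). ZEB2, of the same family as ZEB1, went the other way with 0.50 ± 0.13 (limma adjusted p = 0.0679). The epithelial mucin MUC1 had 0.82 ± 0.24 (limma adjusted p = 0.0973). For 48 h with 24 h none of the genes in the lists named here passed, with 0.0257% of all tested genes called (limma).

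**Figure D4:**
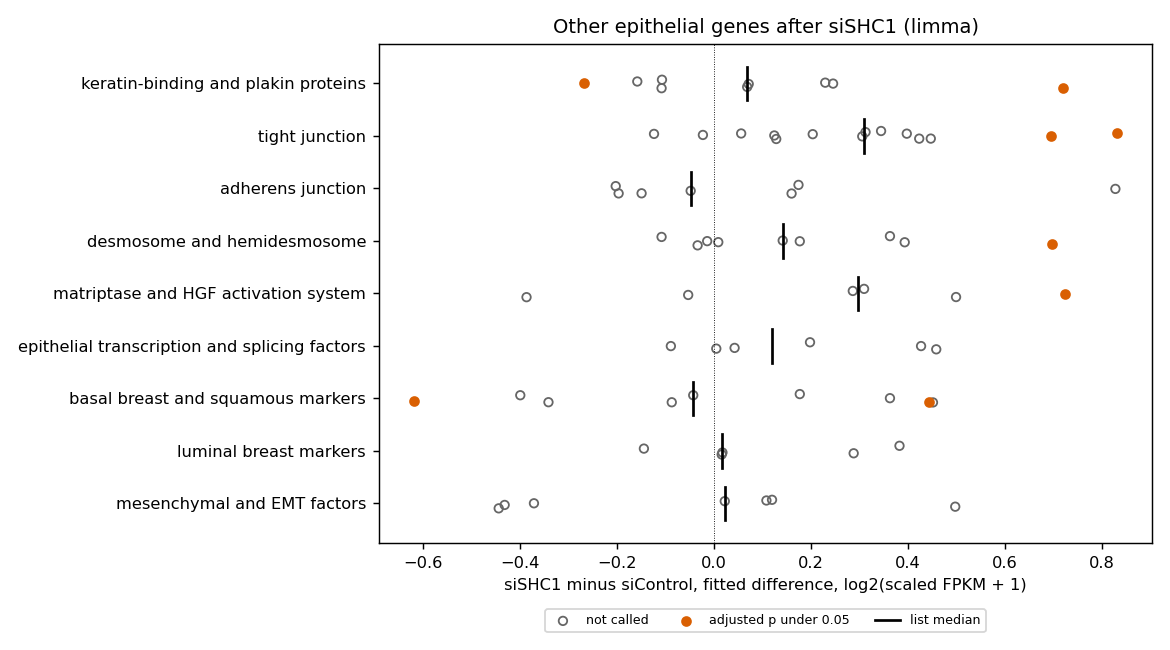
Fitted siSHC1 minus siControl differences on log2(scaled FPKM + 1) of the other tested genes in 9 lists, 1 point per gene, filled where the limma adjusted p was under 0.05, with a bar at each list's median. The median of the tight junction list stands at 0.31 and that of the adherens junction list at -0.05, and filled points lie on both sides of 0 in the keratin-binding list and in the basal list.

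The genes whose pattern over the 6 libraries was most like that of TRIM29, by Pearson correlation on log2(scaled FPKM + 1) among 8913 other genes with a mean of at least 5 scaled FPKM, were VGLL4, COX6A1, PVRL2, COX6A1P2 and MOGS, with r from 0.991 to 0.997. Their range was far smaller, as VGLL4 ran from 17.8 with siControl at 24 h to 25.9 with siSHC1 at 48 h. For KRT19 they were WBP2, RPL36AL, MST1R, ARTN and VPS37A, with r from 0.996 to 0.9998, and WBP2 ran from 60.2 to 116. These correlations are over 6 libraries that share siRNA, time and scaling, and are a description. COX6A1P2 is a pseudogene of COX6A1, and whether fragments of the 2 were told apart is uncertain.

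A 7-base word, GCCCATC, found in an earlier search of the fold changes of these libraries, was present in the 3′ UTR of 42.2% of genes called lower with siSHC1, 5.90% of those called higher and 7.59% of those not called (GENCODE release 29, longest coding transcript, 10915 tested genes matched by symbol). It was chosen by those fold changes, which favours the first share. KRT80 and KRT81 are the 2 of the 10 genes that hold it, beside 8.71% of all 10915 matched genes. The stretches are shown, with the word in capitals, because KRT81 was the member that was lower with siSHC1.
KRT81: gccttgcttgGCCCATCcagtccaggc
KRT80: agaggtctggGCCCATCccaggcctca
The KRT80 transcript, which holds the word in a longer 3′ UTR of 2527 bases against 342 for KRT81, was 1.25 and 1.23 times higher with siSHC1, while KRT81 was lower. Whether the word has a part in the level of either was not tested. A second word, GTCAAGA, was looked up for siNCOA3. KRT8 alone of the 10 holds it, beside 9.09% of all matched genes, and nothing is read from this.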

How the data were processed

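Messenger RNA of 6 MDA-MB-231 libraries was sequenced after siRNA transfection, and the groups were taken from the treatment and time labels. The tools named in the submitters' processing notes are STAR, Cufflinks and DESeq2, and the build named there is hg19, without a role or version for any. The table the authors deposited is named for read counts, but its values are FPKM, since they are not whole numbers, and the depth is unknown. The annotation and any filter were not given in the sources used here.

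Library factors were medians of each library's ratio to the gene-wise geometric mean (11042 genes with at least 1 FPKM in every library). Genes with at least 1 scaled FPKM in at least 2 libraries (11690) were fitted on log2(scaled FPKM + 1) with limma 3.58.1 in R 4.3.3 (eBayes with trend and robust), with additive terms for siRNA and time and 2 residual degrees of freedom. P-values were adjusted by Benjamini-Hochberg over all tested genes, with a threshold of 0.05. The script was run on simulated data with known changes. For siNCOA3 it recovered 71.25% of changes of 0.585 on the log2 scale and 100% of those of 1.5. False calls were 21 for siNCOA3, 17 for siSHC1 and 9 for time.

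The 10 genes and the 18 lists (189 symbols, 186 in the table) were chosen with earlier results of these data known. From a list, called genes were named, up to 3 per comparison, or, for siSHC1, the 2 most abundant where none was called. Other genes of a list that are named (among them CDH1, CLDN7, JUP, SPINT2, ST14, ZEB1, ZEB2, SNAI2 and MUC1) were picked for their role after their values were seen. The result of 1 list is not reported here. Alternatives covered scaling, pseudocount, filter, moderation, model terms and each library left out. For the called list genes these alternatives were added after seeing the data. Descriptions and plots were made in Python 3.11.15 with pandas 2.3.3 and matplotlib 3.10.9.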

Additional observations from a re-analysis of the deposited data

Results flagged for a closer look

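For 5 of the 10 genes the siNCOA3 minus siControl difference, on log2(scaled FPKM + 1), had opposite signs at 24 h and 48 h, with 1 library per siRNA and time, so that the difference between the times was not tested. AGR2 had 0.19 at 24 h and -0.29 at 48 h. SPINT1 had 0.15 and -0.14, and KRT19 had 0.0904 and -0.15. KRT7 had -0.0743 and 0.13. CLDN4 had -0.0692 and 0.0027. No gene of the set changed sign in this way with siSHC1. Groups of 2 libraries are too small for a search for outlying libraries.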

How the results depend on the processing

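None of the 10 genes was called for siNCOA3 or for time under any alternative run (limma), and AGR2 was not tested with at least 5 FPKM required. For siNCOA3 the count over all genes went from 13 to 7 without scaling and to 0 without the filter on low values (1531 at an unadjusted p under 0.05), and ran from 3 to 30 with a library left out. For siSHC1 the described count of 6 went to 0 without the filter and to 2 without the term for time (no replicate block), and ran from 1 to 7 with a library left out. Over all genes 751 became 14 without the filter and 226 without the term for time, and 59 to 758 with a library left out. For time 3 became 0 without the filter and 1 without the term for siRNA, and 0 to 46 with a library left out. The cause of these moves was not tested, apart from the larger number of genes tested without the filter, 20111. The labels number no replicates, so that the term for time is the block that pairs the siRNAs.

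Direction changed only for siNCOA3 values near 0 and for KRT7 over time. KRT19 had 0.0211 and CLDN4 0.0157 without scaling, and SPINT1 -0.0113 with equal library totals. With a library left out, the siNCOA3 value ran from -0.0921 to 0.149 for KRT7, -0.167 to 0.109 for KRT19, -0.102 to 0.0354 for CLDN4, -0.278 to 0.293 for SPINT1 and -0.401 to 0.299 for AGR2, and the value for time of KRT7 from -0.0304 to 0.108. The cause was not tested. The number of reads behind low values such as those of AGR2 and TRIM29 is unknown, which limits what can be said of their precision.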
